A study of Mus musculus with 4 samples.

Results

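The E protein genes Tcf3 (E2A), Tcf4 (E2-2) and Tcf12 (HEB) and the Id genes Id1, Id2 and Id3 were examined for streptavidin ChIP peaks in mouse thymocytes, a pull-down meant to recover the transcription factor PLZF, the product of Zbtb16. The 6 genes were taken by name out of 21887 nuclear protein-coding genes. A peak was counted for a gene when its midpoint lay in the RefSeq gene body or within 50 kb on either side, a region called the window here. Of the 5198 peaks of one list and the 4246 of the other, 6 and 4 met this rule. Tcf3 was the one gene of the 6 with a peak at its promoter, and it had that peak in both libraries. Tcf12 had a pair of weak peaks in 1 library, the windows of Id1 and Id3 held peaks that lay inside a neighbouring gene, and the windows of Tcf4 and Id2 held none.

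E proteins are basic helix-loop-helix (bHLH) transcription factors that bind the E-box, a short palindrome-like motif, as dimers with themselves or with other bHLH proteins. Id proteins have the helix-loop-helix but lack the basic region that contacts DNA, so a dimer of an Id protein and an E protein does not bind. In the thymus E2A and HEB drive recombination of the T cell receptor genes and hold thymocytes at developmental checkpoints, while receptor signalling induces Id3 and so lowers E protein activity. Natural killer T cells, which depend on PLZF, need HEB to form, and Id2 and Id3 shape their numbers and subsets.

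Both mouse groups were on a C57BL/6 background and carried a PLZF transgene together with one for BirA, a bacterial enzyme that attaches biotin, which streptavidin beads then capture. The library labelled Tg thy came from these animals. The library labelled NKT came from animals that had, in addition, a Valpha14 transgene, which encodes a T cell receptor alpha chain of natural killer T cells. Thymocytes are given as the cell type of both, and sorting is not mentioned, so NKT names the library here. The labels name neither the promoters that drive the transgenes nor how many animals were pooled. With 1 library a group there was no replicate, no test between groups was possible, and the number of reads is unknown. Among the samples used here none was a pull-down from animals lacking the PLZF transgene, so a peak need not be a site of PLZF. The score printed with each peak is the value that the authors deposited beside it, and its scale is not stated in the files or labels. It served to rank peaks within a list, and scores of both lists are set side by side without a comparison of size. Peaks do not measure expression. Among marker genes, 7 of 7 of T cells had a peak in their window in each list and 0 of 4 erythroid markers did. In the Tg thy and the NKT list, 3 and 2 of 5 B cell markers and 2 and 3 of 5 myeloid markers had one. The share of all protein-coding genes was 30.3% and 26.3%. These counts were not used to name the cells.

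Of the 6 genes, 4 had a peak in their window in the Tg thy list (Tcf3, Tcf12, Id1 and Id3). Of all protein-coding genes, 30.3% met the same rule. In the NKT list 3 did (Tcf3, Id1 and Id3), where 26.3% of all genes did. The same 3 genes had a peak in both lists, which held for 20.6% of all genes. With 6 genes, a count of 4 or 3 is a description of these loci and not a sign that they stand apart. A window can hold peaks that lie closer to another gene. When each peak was given only to its nearest protein-coding gene within 50 kb, Tcf3 and Tcf12 were left in the Tg thy list and Tcf3 in the NKT list. The background was then 13.2% of all genes in the Tg thy list, 11.3% in the NKT list and 7.95% in both. The map of the 6 loci shows where each peak lay.

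**Figure D1:**
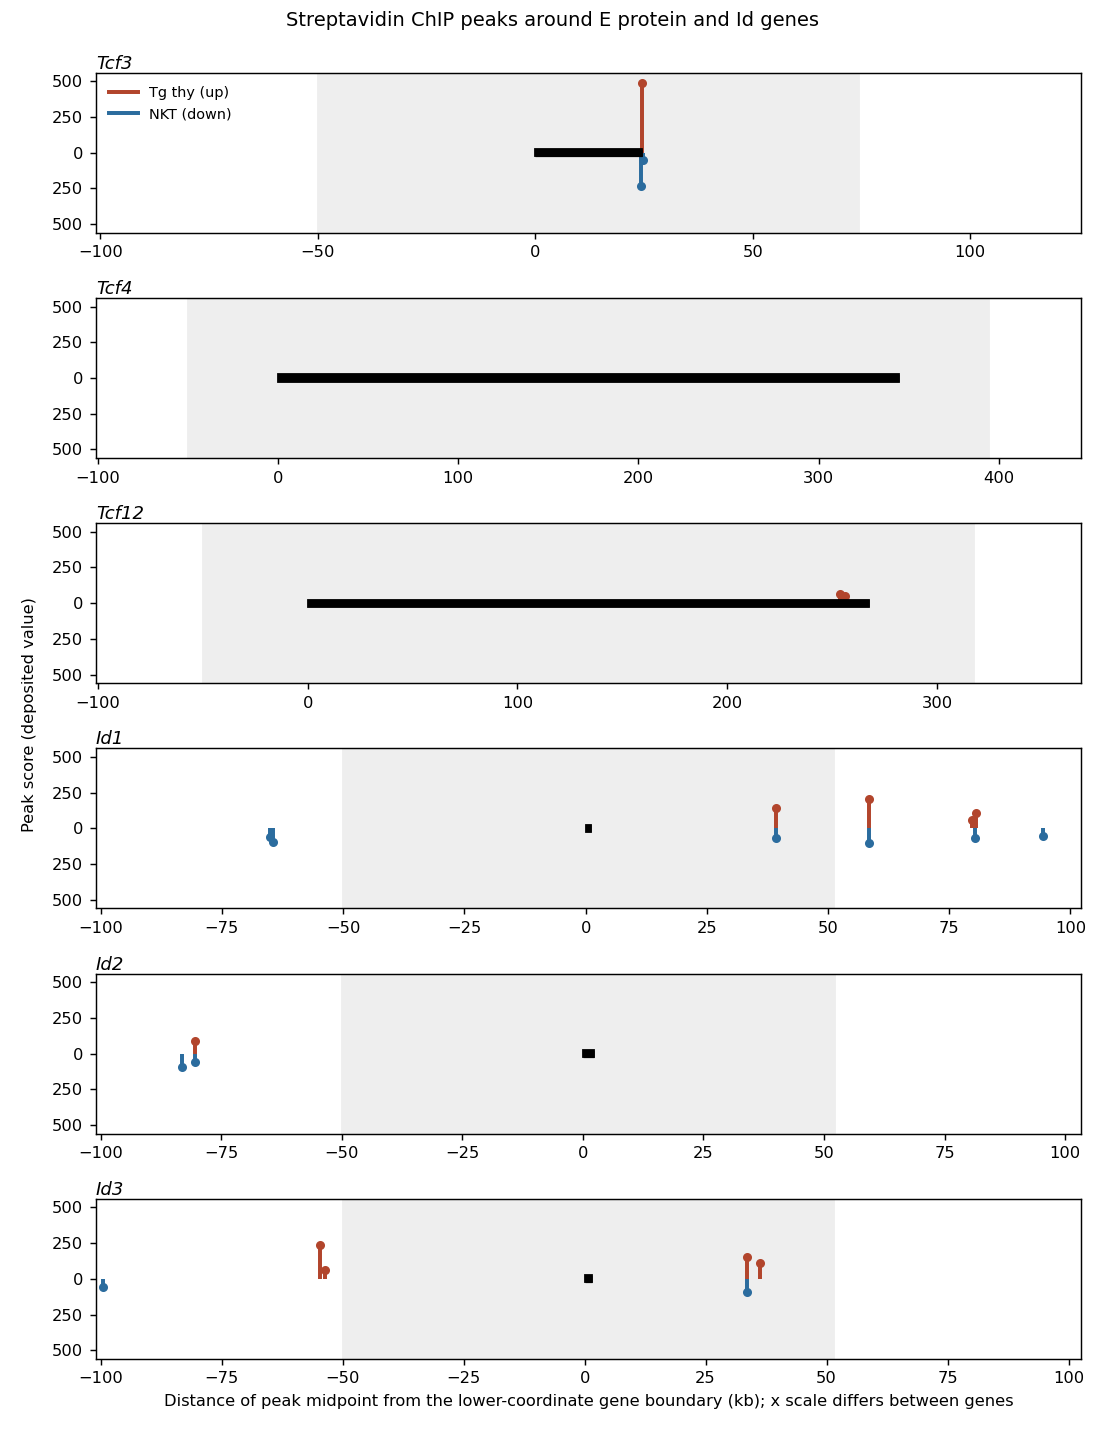
Peaks up to 100 kb from each of the 6 genes. The x axis gives the distance in kb of the peak midpoint from the lower-coordinate gene boundary, the black bar is the gene and the grey area the window of the gene body and 50 kb on either side; stems give the deposited peak score, upward for the Tg thy list and downward for the NKT list. The highest stems are those at the upper end of Tcf3 (489 and 230.4), and no stem lies in the grey area of Tcf4 or Id2.

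Tcf3 encodes the E protein splice forms E12 and E47 and lies on the minus strand of chromosome 10 (GRCm38.p6, which is mm10, 80409541 to 80433976), so its upper boundary is its 5′ end. The Tg thy list had 1 peak there, from 80433656 to 80434490, 835 bp wide, with a score of 489. It was ranked 285 of 5198, and 94.5% of that list scored lower. The peak covered 321 bases of the gene's 5′ end and 514 bases beyond it. The NKT list had 2 peaks at the same place, separated by 3 bases. The larger ran from 80433696 to 80434114 with a score of 230.4, rank 410 of 4246, above 90.3% of that list. The smaller ran from 80434118 to 80434281 with a score of 51.5, close to the lowest score of the list, 50.02. All 583 bases of both NKT peaks fell inside the single Tg thy peak. The site was therefore present in both lists, as 1 peak in one and as 2 abutting peaks in the other. Tcf3 was the nearest protein-coding gene of each of the 3 peaks. Their midpoints also fell in the windows of Mex3d, Mbd3 and Uqcr11, which lie on the other side of the Tcf3 gene body.

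The RefSeq promoter table (GRCm38.p6) lists 1 start for Tcf3, at 80433635, 341 bases inside the gene span, so longer transcripts begin farther upstream. The Tg thy peak began 21 bases upstream of this start. A peak overlapped a listed promoter, taken as the 250 bases before a start and the 50 after it, at 3.28% of 17492 protein-coding genes in the Tg thy list, at 2.42% in the NKT list and at 1.44% in both. Tcf3 was among the last group. Of the 4 genes of the 6 with an entry in that table (Tcf3, Tcf12, Id2 and Id3), it was the one gene with such a peak. Among the 526 Tg thy peaks on protein-coding promoters, the Tcf3 peak had the 17th highest score, against a median of 105.2. Among the 397 NKT peaks on such promoters it had the 28th highest, against a median of 74.0. The 250 bases before the start are printed for Tcf3, whose promoter carried the peak, and for Tcf12, Id2 and Id3, which had none there. Of the 3 starts listed for Tcf12, the one farthest upstream, at 72111819, is shown. All are written 5′ to 3′ on the gene's own strand. Capitals mark matches on either strand to the E-box CANNTG, the motif that E proteins bind, and to CCGGAAG, a motif of ETS factors.
Tcf3, chr10:80433636-80433885, minus strand: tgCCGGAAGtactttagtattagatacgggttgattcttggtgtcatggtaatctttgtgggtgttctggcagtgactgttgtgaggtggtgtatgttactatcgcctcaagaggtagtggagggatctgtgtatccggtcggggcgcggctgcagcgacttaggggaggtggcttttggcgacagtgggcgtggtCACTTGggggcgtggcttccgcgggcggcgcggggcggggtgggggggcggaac
Tcf12, chr9:72111820-72112069, minus strand: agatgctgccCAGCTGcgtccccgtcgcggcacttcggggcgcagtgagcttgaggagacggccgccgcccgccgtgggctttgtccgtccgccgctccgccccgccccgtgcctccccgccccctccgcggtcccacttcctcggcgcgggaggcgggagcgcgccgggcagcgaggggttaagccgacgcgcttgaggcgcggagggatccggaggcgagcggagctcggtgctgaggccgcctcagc
Id2, chr12:25096093-25096342, minus strand: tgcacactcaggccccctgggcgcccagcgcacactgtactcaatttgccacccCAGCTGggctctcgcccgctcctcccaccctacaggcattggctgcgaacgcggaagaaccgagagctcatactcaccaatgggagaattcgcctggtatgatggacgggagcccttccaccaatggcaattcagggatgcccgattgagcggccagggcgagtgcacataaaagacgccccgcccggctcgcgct
Id3, chr4:136143572-136143821, plus strand: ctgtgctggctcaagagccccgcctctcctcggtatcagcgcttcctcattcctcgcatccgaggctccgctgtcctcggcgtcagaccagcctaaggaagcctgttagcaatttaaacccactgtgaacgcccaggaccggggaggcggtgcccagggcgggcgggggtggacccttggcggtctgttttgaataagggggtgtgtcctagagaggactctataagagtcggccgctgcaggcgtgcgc

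In the Tcf3 sequence the Tg thy peak covered 230 of the 250 bases and the larger NKT peak 190. The match CCGGAAG lay 248 to 242 bases before the start, inside both peaks. Over the 32851 promoters of the table, 6.91% had CCGGAAG in the same 250 bases. The single E-box, CACTTG, lay 54 to 49 bases before the start, inside the Tg thy peak and outside the NKT one. An E-box of any kind occurred in 66.2% of the promoters. The form CAGCTG occurred in 13.0%, and was present 240 to 235 bases before the Tcf12 start and 196 to 191 before that of Id2. The Id3 sequence had neither motif. The motif GGGGCGG of Sp factors was found 2 times in the Tcf3 sequence and 3 times in that of Tcf12, against a share of 21.0% of promoters with at least 1. GCGNGGGCG (Egr factors, 4.70% of promoters) and TGTGGT (Runx factors, 14.0%) were in none of the 4. The other Tcf12 promoters, which also had no peak, held 1 E-box, CAAGTG, before the start at 72111201 and none of these motifs before the start at 71896096, with a GC content of 78.0% and 34.8%. In the printed sequences it was 59.6% for Tcf3, 76.8% for Tcf12 and 62.8% for both Id2 and Id3. The median over all promoters was 52.4%. These are matches of letters in a window and not sites shown to be bound.

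Tcf12 encodes HEB, the partner of E2A in thymocytes. The gene spans 268 kb of the minus strand of chromosome 9 (71844252 to 72111893). The Tg thy list had 2 peaks in it, both near its 5′ end. The first ran from 72098086 to 72098394, 13.7 kb inside the 5′ boundary, with a score of 63.9. The second ran from 72100439 to 72100665, 11.3 kb inside, with a score of 52.35. They lay 13.0 kb and 10.6 kb from the nearest of the 3 listed starts. Both are among the weaker entries of the list, where 19.4% and 4.56% of peaks scored lower. Neither overlapped an NKT peak, and the NKT list had no peak closer to Tcf12 than 274 kb. Both Tg thy scores were near the lowest value of that list (50.03), and what depth, which is unknown in both libraries, adds to the absence of an NKT peak was not tested. The window of Tcf12 measured 368 kb. Of the 433 genes with windows of 300 to 400 kb, 34.2% had a peak in the Tg thy list and 32.8% in the NKT list.

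Tcf4 encodes E2-2, the E protein best known for its part in plasmacytoid dendritic cells. It is the longest of the 6 genes, 345 kb on chromosome 18 (69343429 to 69687967), and it had no peak. The nearest peak was 496 kb away in the Tg thy list, with a score of 69.3, and 651 kb away in the NKT list, with a score of 66.1. Of all protein-coding genes, 26.1% and 23.7% lay still farther from a peak. A long gene without a peak was common. Of 449 genes whose window was at least as long as the 445 kb of Tcf4, 298 (66.4%) had no peak in either list, 24.9% had one in the Tg thy list and 26.3% had one in the NKT list. Tcf4 has no entry in the promoter table used here.

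Id1 is a short gene (1.16 kb) on chromosome 2 (152736251 to 152737410), and its product is an inhibitor widely used as a readout of BMP signalling. Its window held 1 peak in each list, on the upper-coordinate side. The Tg thy peak ran from 152775239 to 152775753 with a score of 146, above 62.6% of the list. The NKT peak ran from 152775458 to 152775733 with a score of 69.9, above 46.3% of its list. All 276 bases of the NKT peak lay inside the Tg thy one. The site was 38.1 kb and 38.2 kb from Id1 and inside Bcl2l1, which encodes the survival protein BCL-XL, and it also fell in the window of Cox4i2. Bcl2l1 held further peaks outside the Id1 window. The closest of them to Id1, 57.2 kb and 57.3 kb away, scored higher than the peak in that window, with 208 in the Tg thy list and 102 in the NKT list. No peak of either list was closer to Id1 than the one in its window, and no promoter entry for Id1 was used here.

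Id2, which promotes innate lymphoid and effector T cell fates by holding E proteins in check, had no peak in its window on chromosome 12 (gene body 25093799 to 25096092). The nearest peak was present in both lists inside Kidins220, 80.4 kb away on the side of the 3′ end. It had a score of 87.8 in the Tg thy list (25013193 to 25013524) and of 60.9 in the NKT list (25013309 to 25013503). The NKT list had a second peak 83.2 kb away (25010439 to 25010729, score 91.1) that no Tg thy peak overlapped. Distances of this size are ordinary, since 62.2% of protein-coding genes were farther from a Tg thy peak and 66.7% farther from an NKT peak. The median distance was 151 kb and 183 kb.

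Id3, the Id gene that T cell receptor signalling induces in thymocytes, lies on the plus strand of chromosome 4 (136143822 to 136145392). Its window held 2 Tg thy peaks and 1 NKT peak, all downstream of the gene and inside E2f2, which encodes a cell cycle transcription factor. The first site was in both lists, 32.1 kb and 32.0 kb from Id3, from 136177199 to 136177709 with a score of 153 in the Tg thy list and from 136177249 to 136177501 with a score of 94.98 in the NKT list. The second Tg thy peak (136179937 to 136180264, score 112) had no NKT counterpart. All 3 peaks also fell in the window of Asap3. Upstream of Id3 there was no peak within 50 kb, but the Tg thy list had 2 peaks just beyond that limit. One lay 54.6 kb upstream (136088918 to 136089542) with a score of 239, the highest within 100 kb of Id3, and the other 53.7 kb upstream (136089953 to 136090241) with a score of 59.6. Neither overlapped an NKT peak, and both were nearer to the ribosomal protein gene Rpl11, at 35.8 kb and 36.7 kb.

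The loci thus differed in how near their closest peak was. In the Tg thy list the order was Tcf12 (0 kb), Tcf3 (0.097 kb), Id3, Id1, Id2 and Tcf4. In the NKT list it was Tcf3 (0 kb), Id3, Id1, Id2, Tcf12 and Tcf4. Tcf12 held the first place in one list and the fifth in the other on the strength of its pair of low-scoring peaks, and the other genes kept the same relative order. With no replicate, neighbours in this order have no spread against which to set their difference.

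**Figure D2:**
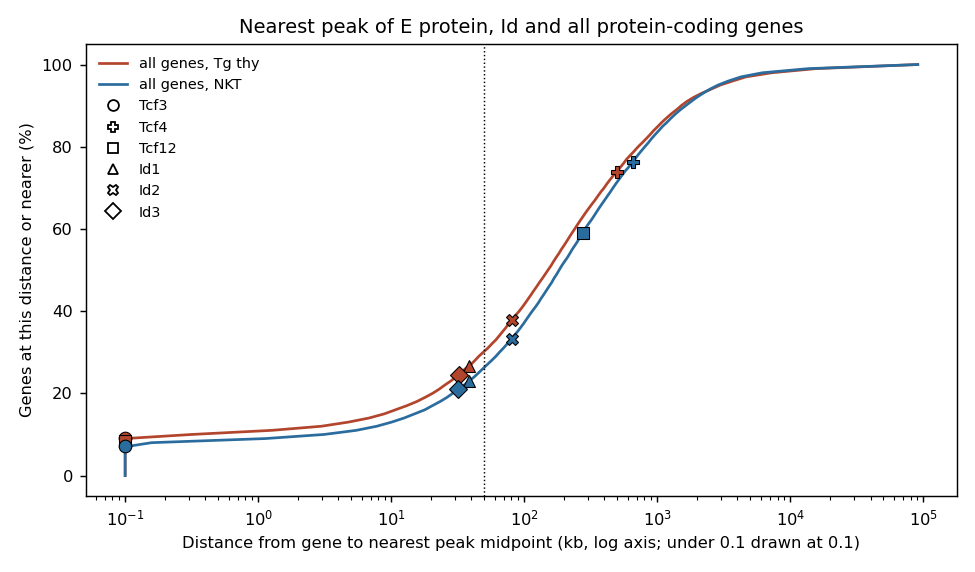
Distance from a gene to the midpoint of its nearest peak in kb (x, log axis, 0 inside the gene) against the percentage of protein-coding genes at that distance or nearer (y). Lines show all 21887 genes in each list, symbols the E protein and Id genes in the colour of the list, and the dotted line the 50 kb limit; Tcf12 sits at the left in the Tg thy list and at 274 kb in the NKT list, and Tcf4 is the farthest in both.

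By score, the 6 Tg thy peaks in these windows ranged from 52.35 to 489 with a median of 129, beside 111 for the whole list. The 4 NKT peaks ranged from 51.5 to 230.4 with a median of 82.4, beside 73.8. In the first list 4 of 6 and in the second 2 of 4 were above the list's own median. For 3 of 6 Tg thy peaks there was an NKT peak overlapping by at least 1 bp (exact Clopper-Pearson 95% interval of the share 11.8 to 88.2%), beside 45.7% of the whole list. Each of the 4 NKT peaks (4 of 4) had a Tg thy counterpart (lower bound of the interval 39.8%), beside 60.7%. Of these 4, 2 are the abutting Tcf3 peaks, which lie in the same Tg thy peak and are not separate sites. Where the overlap had to reach 50% of both peaks, 2 of 6 Tg thy and 2 of 4 NKT peaks were shared. No share of the whole list is given for that rule. The intervals cover counting error only, treat each peak as independent and hold the value of the whole list in each case. That of the NKT list counts the Tcf3 site 2 times. The Tg thy peaks without an NKT counterpart were both Tcf12 peaks and the second Id3 peak.

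**Figure D3:**
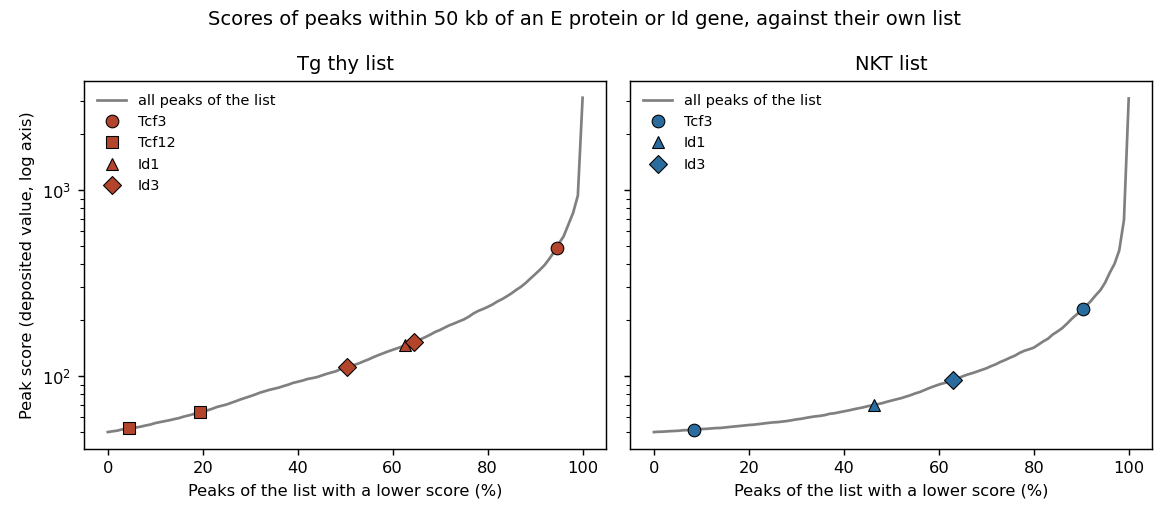
Deposited score of each peak in the window of an E protein or Id gene (y, log axis) against the percentage of peaks in the same list with a lower score (x); the grey line is the whole list. The larger Tcf3 peak is above 94.5% of the Tg thy and 90.3% of the NKT list, while both Tcf12 peaks are above no more than 19.4% of theirs.

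Genes with the pattern most like that of Tcf3 and Id3, which had the most peaks with 3 each, were sought by equal peak counts and the smallest summed difference in log10 highest score over the 2 libraries. They were Mbd3 and Mex3d for Tcf3, with Uqcr11 tied, and Asap3 and E2f2 for Id3. In all of these the difference was 0, because their windows hold the very same peaks.

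The wider E protein network was described through 5 lists of genes, 70 genes in all. The lists were drawn up with earlier results of these data known, so their shares are a description and not a test. Genes that E proteins are known to regulate in thymocytes had a peak in their window most often among these lists, at 21 of 24 in the Tg thy list, 19 in the NKT list and 18 in both. The shares are 87.5%, 79.2% and 75.0%, beside 30.3%, 26.3% and 20.6% of all genes. With each peak given only to its nearest protein-coding gene, 19 of the 24 had one in the Tg thy list and 16 in the NKT list. Rag1 and Rag2 count as 2 genes, though their highest peaks were the same (476 and 112). A high share was not particular to this list, since 7 of 7 T cell marker genes, Cd4 among them, also had a peak in each list. The highest NKT scores were those of Cd4, the coreceptor (1158, and 2245 in the Tg thy list), Tcf7, which encodes TCF1 (831 and 1760, 31.0 kb away in both), and Zbtb16, the gene of PLZF itself (463 and 572). Both groups carry a PLZF transgene, and the peak lists cannot tell reads of its copies from those of the native Zbtb16. Cdkn1a, a cell cycle inhibitor, was marked by NKT peaks alone (121) and Il7r, the interleukin 7 receptor, in the Tg thy list alone (94.3, 45.0 kb away). Cdk6 and Hes1, named after their values were seen, had none.

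Genes upstream of the Id genes, in TGF-beta and BMP signalling and the Egr family, had a peak at 6 of 11 in each list (54.5%, beside 30.3% of all genes for Tg thy and 26.3% for NKT) and at 5 in both (45.5%, beside 20.6%). The signal transducers Smad3 (522 in the NKT and 549 in the Tg thy list, inside the gene) and Smad5 (304 and 192, 5.02 and 4.88 kb away) had the highest NKT scores. The receptor gene Tgfbr2 came next (177 and 216, 10.5 and 9.97 kb away). By Tg thy score Egr2, named after its values were seen, was above Smad5 and Tgfbr2 (336, and 148 in the NKT list). Its highest peaks were different sites, 30.7 kb from the gene in the Tg thy list and inside the gene in the NKT list. Smad4 had peaks in the Tg thy list alone (191) and Egr1, which acts upstream of Id3, in the NKT list alone (57.2, 4.85 kb away). The Egr1 score was low in its list, where the lowest was 50.02. Co-regulators of E proteins had a peak at 6 of 10 in the Tg thy and 4 of 10 in the NKT list, with 4 in both, beside the same 30.3%, 26.3% and 20.6% of all genes. With nearest genes only, 4 and 2 of these 10 had a peak, and 6 and 5 of the 11 upstream genes, beside 13.2% and 11.3% of all genes. Some of the co-regulator peaks named next therefore lie nearer to other genes. Cbfa2t3, an ETO family co-repressor that binds E proteins, had 5 peaks in each list with highest scores of 345 in the NKT and 483 in the Tg thy list. The highest peak lay 2.8 kb from the gene in both. Cbfa2t2 of the same family had 119.6 and 119, 37.7 and 37.6 kb away. The acetyltransferase gene Crebbp had 109.6 and 127, 3.46 and 3.42 kb away. By Tg thy score Kat2b, named after its values were seen, was above Cbfa2t2 and Crebbp (329, and 69.8 in the NKT list, inside the gene in both). Ldb1 (90.1, inside the gene) and Ep300 (85.5, 46.5 kb away) had peaks in the Tg thy list alone.

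The tissue-restricted bHLH partners of E proteins had a peak at 3 of 11 in each list (27.3%) and 2 in both (18.2%). These shares are close to those of all genes (30.3%, 26.3% and 20.6%). With each peak given only to its nearest protein-coding gene, 0 of the 11 had one in either list, so the peaks named next lie nearer to other genes. The muscle factor gene Myod1 had 306 in the NKT and 272 in the Tg thy list, 10.8 kb away in both, and Bhlha15 87.2 and 54.6, 27.4 kb away in both. Ascl2 had only an NKT peak (141, 39.5 kb away) and Nhlh1 in the Tg thy list alone (133, 26.3 kb away). Other factors that bind E-box motifs, with Id4, had a peak at 4 of 15 and 3 of 15, with 3 in both, again near the background. In both lists they were Snai3 (378 in the NKT and 876 in the Tg thy list, 3.48 and 3.46 kb away), Usf1 (115 and 77.0, 22.4 and 22.5 kb away) and Mycn (56.3 and 51.6, inside the gene). Zeb1, a repressor that competes for E-boxes, had a peak in the Tg thy list alone (51.4). This score and the Tg thy score of Mycn were close to the lowest of that list, 50.03. With nearest genes only, 2 of these 15 genes had a peak in the Tg thy list and 1 in the NKT list. Most of the NKT peaks named here therefore lie nearer to other genes. Only the Mycn and Zeb1 peaks lay inside the gene named, and those of Snai3 and Usf1 lay outside. The fourth Id gene, Id4, had no peak in either list.

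**Figure D4:**
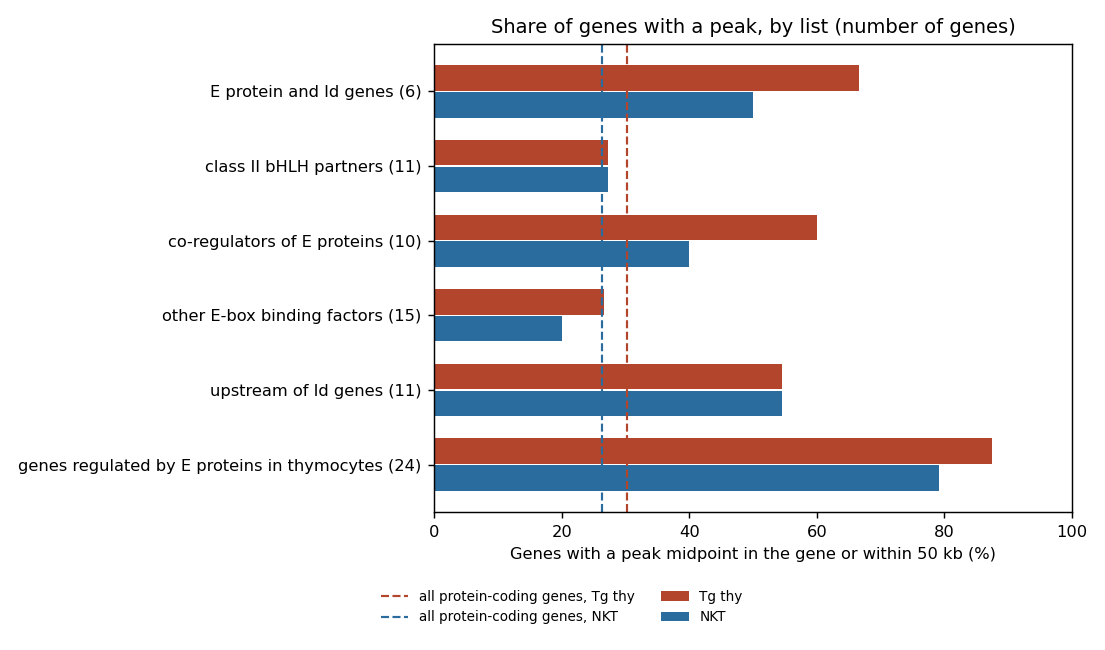
Percentage of genes in each list (number of genes in parentheses) with a peak midpoint in the gene or within 50 kb, in the Tg thy and the NKT list. Dashed lines show all protein-coding genes (30.3% and 26.3%); the longest bars are those of genes that E proteins regulate in thymocytes (87.5% and 79.2%), and bars carry no error since each stands for 1 library.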

How the data were processed

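Streptavidin ChIP-seq peak lists of 2 of the 4 samples were used, 1 library per group; the input libraries were not analysed here. Each line holds a position, a name (MACS and a number) and a score, deposited by the authors without a stated scale. Bowtie, Picard and HOMER are named as tools, and mm10 as the build, per the submitters' processing notes. Their versions, the control used to find peaks and any pooling are not given in the sources here. Depth is unknown, so no precision beyond exact 95% intervals of counting error could be given.

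Starts were raised by 1 base. Gene spans came from RefSeq GRCm38.p6 and promoters from its promoter table, read with Python 3.11.15, pandas 2.3.3, NumPy 2.4.6 and SciPy 1.17.1; figures used matplotlib 3.10.9. A peak was counted for each gene whose body or 50 kb flank held its midpoint, and was shared where both lists overlapped by 1 bp. The window code was checked on simulated peaks. All 6 genes were named, with all their peaks. In each list of related genes, up to 3 genes with a peak in both libraries (by NKT score) and up to 2 with a peak in 1 library were named. The genes and lists were chosen with earlier results of these data known; the motifs were chosen after the files had been seen. Alternatives were other windows, nearest-gene assignment, any overlap, stricter scores and stricter sharing.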

Additional observations from a re-analysis of the deposited data

How the results depend on the processing

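No paired analysis was possible because each group had 1 library, and for the same reason no replicate could be left out. Each result below gives the Tg thy value first and the NKT value second. With gene bodies only, the 6 genes held 2 and 1 peaks at 1 and 1 genes and 0 in both, since the midpoint of the Tg thy Tcf3 peak lies 0.097 kb outside the gene; 8.37% and 7.18% of all genes had a peak (4.88% in both), and 23 and 19 of the related genes did. With 10 kb on either side they held 3 and 2 peaks at 2 and 1 genes (1 in both), against 15.6% and 13.0% of all genes (9.21% in both). With 100 kb there were 12 and 12 peaks at 5 and 4 genes (4 in both), against 41.65% and 37.19% of all genes (31.0% in both). With nearest genes only there were 3 and 2 peaks at 2 and 1 genes (1 in both), against 13.2% and 11.3% (7.95% in both). With the top 50% of each list by score there were 4 and 2 peaks at 3 and 2 genes (2 in both), against 18.2% and 15.8% of all genes (12.5% in both). Tcf12 then had no peak, and Id1 had none in the NKT list. With the top 1000 there were 1 and 1 peaks at 1 and 1 genes, Tcf3 in each (1 in both), against 7.77% and 8.12% of all genes (5.38% in both), 18 and 17 related genes, and an overlapping share of 100% for the Tg thy list, which is 1 of 1 peak. Any overlap with the window left the counts of peaks and of E protein and Id genes as reported. With 50% reciprocal overlap, 2 of 6 and 2 of 4 peaks were shared. With midpoints within 1 kb, 3 of 6 and 4 of 4 were. Of 183 values for single genes and single lists under these alternatives, 129 stayed within 1.5 times of the reported value and 54 moved further. The 129 include genes without a peak, such as Tcf4, which stayed at 0 under every alternative. A highest score had no value where an alternative removed the peak, so such losses are not among the 183. The count is therefore no measure of how firm the results are. Depth is unknown, so the absence of a peak says only that none is listed.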

Other observations

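The match CCGGAAG, seen in the Tcf3 promoter, was more frequent in promoters with a peak than in the whole table. It was in 19.7% of the 766 promoters (coding and noncoding genes) that a Tg thy peak overlapped and in 23.8% of the 558 that an NKT peak overlapped, beside 6.91% of all 32851. The E-box CANNTG was in 61.4% and 61.5% of promoters with a peak, beside 66.2% of all, and CAGCTG in 14.0% and 13.6%, beside 13.0%. TGTGGT was in 16.6% and 14.7%, beside 14.0%, GGGGCGG in 18.3% and 21.3%, beside 21.0%, and GCGNGGGCG in 2.09% and 2.51%, beside 4.70%. These shares describe 1 library each and were not tested.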
